A study of Danio rerio with 6 samples.

Results

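The SoxE genes were followed across RNA sequencing libraries of sorted zebrafish trunk cells. The members were the rows of the count table whose gene symbol was sox10, sox9a, sox9b, sox8a or sox8b, and each symbol matched 1 row, giving 5 of 32520 genes. All cells came from wild-type embryos at 24 hours post fertilization, reared at 28 °C, and the 6 libraries formed 3 groups of 2. Slow muscle (replicates 1 and 2) was sorted on green fluorescence from the tgPAC(prdm1a:eGFP) transgene, which marks slow-twitch fibres and muscle pioneers. Untreated neural crest (replicates 1 and 2) was sorted on red fluorescence from tg(sox10:mRFP). Cyclopamine neural crest (replicates 3 and 4) came from embryos held in 100 µM cyclopamine, an inhibitor of the Hedgehog transducer Smoothened, between 50% epiboly and 24 hours. The titles of the cyclopamine libraries name no reporter. No vehicle is stated for the untreated embryos, and the number of embryos behind a library is not stated. Nothing says that the libraries of a group came from separate clutches, so the p-values measure the spread between these libraries, which may be technical. The reporter of the untreated crest sort is driven by the sox10 promoter, so the contrast of sox10 between slow muscle and untreated crest is in part set by the gate. The same holds for cyclopamine crest if it was sorted on that reporter.

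SoxE proteins are HMG-box transcription factors that bind DNA as monomers or dimers and switch on lineage genes. Sox10 is required in neural crest for pigment cells, peripheral glia and enteric and sympathetic neurons, and the zebrafish mutant in sox10 is called colourless for its lack of pigment cells. Sox9 acts in early crest and is the main regulator of cartilage, with SoxD proteins (Sox5 and Sox6) as partners. Zebrafish retain duplicates of the other family members, sox9a and sox9b as well as sox8a and sox8b. In zebrafish sox9a is known for cartilage and sox9b for crest.

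Library totals ran from 15355583 to 26441238 counts, and the number of genes detected from 13249 in cyclopamine replicate 4 to 17275. Cyclopamine replicate 4 stood apart. It had 1164 genes at 0 with at least 100 counts in its replicate, against 122 to 421 in the others, and the rank correlation across genes between replicates was 0.810 for cyclopamine and 0.914 and 0.912 for the other groups. Summed markers matched the labels. Crest markers summed to 2034 to 3112 CPM (counts scaled to equal TMM-adjusted library sizes) in crest and 178 to 206 CPM in slow muscle. Of the slow muscle sums, snai1b alone gave 189 and 156 CPM. Slow muscle markers summed to 106 to 213 CPM in crest and 30961 and 67486 CPM in slow muscle. Of the crest sums, prdm1a alone gave 103 to 203 CPM. The slow muscle sorts also carried epidermis markers at 8831 and 12410 CPM, against 995 to 2031 CPM in crest. In bulk libraries, fewer cells of a type and less RNA per cell cannot be told apart.

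Of the SoxE genes 3 had reads and 2 had almost none. sox10 was very high in every crest library and close to absent from slow muscle. sox9b was also higher in crest, by a smaller factor. sox9a had its lowest values in untreated crest, its slow muscle and cyclopamine crest ranges overlapped, and no change in it was called in the main fit. sox8a and sox8b were at or next to 0 in all libraries. sox10, sox9a and sox9b passed the filter on low counts and were tested, and sox8a and sox8b did not pass it.

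sox10 (ENSDARG00000077467), the crest regulator, had 36 and 100 counts in slow muscle, 62468 and 53577 in untreated crest, and 57766 and 85781 in cyclopamine crest. On the CPM scale these were 1.90 and 4.22 CPM, 3293 and 3169 CPM, and 2616 and 4029 CPM. Both slow muscle libraries lay far below the 4 crest libraries, and the untreated libraries lay between the cyclopamine ones. In crest, 0.275% to 0.457% of all counts came from this single gene. The slow muscle mean was 3.06 ± 1.64 CPM (SD, n = 2) and the untreated mean 3231 ± 87.3 CPM (SD, n = 2), so the slow muscle level was 0.0948% of the untreated level. The fitted change was -10.04 ± 0.71 on the log2 scale (SE; edgeR quasi-likelihood, adjusted p = 0.0119). In the same comparison 2.55% of all 17701 tested genes were called in either direction and 0.876% were called lower, and sox10 was the 1 SoxE member called among the 3 tested. Against cyclopamine crest the log2 change was -10.08 ± 0.71 (SE, adjusted p = 0.0141), where 2.18% of tested genes were called in either direction and 0.797% were called lower. With only the 4 libraries of that comparison in the fit, its adjusted p was 0.0983 and no gene was called.

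The smoothed distribution of counts was searched for a peak in a window that left out the lowest counts. It peaked there at 44 counts in slow muscle replicate 1, where sox10 had 36, and at 38 counts in replicate 2, where sox10 had 100. A peak below the window would not have been found. Other crest genes lay above or below sox10 in these sorts. The slow muscle level of crestin, a zebrafish crest transcript, was 0.663% of the untreated level, that of the glial receptor gene erbb3b 1.03%, and that of the crest factor gene foxd3 3.13%, while sox10 was at 0.0948%. The crest factor gene pax7a was lower, at 0.0075%, and mitfa, tyr, pmela, ltk, dct and tyrp1b had 0 counts in both slow muscle libraries. Whether these transcripts came from a few crest cells in the muscle gate was not tested.

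**Figure D1:**
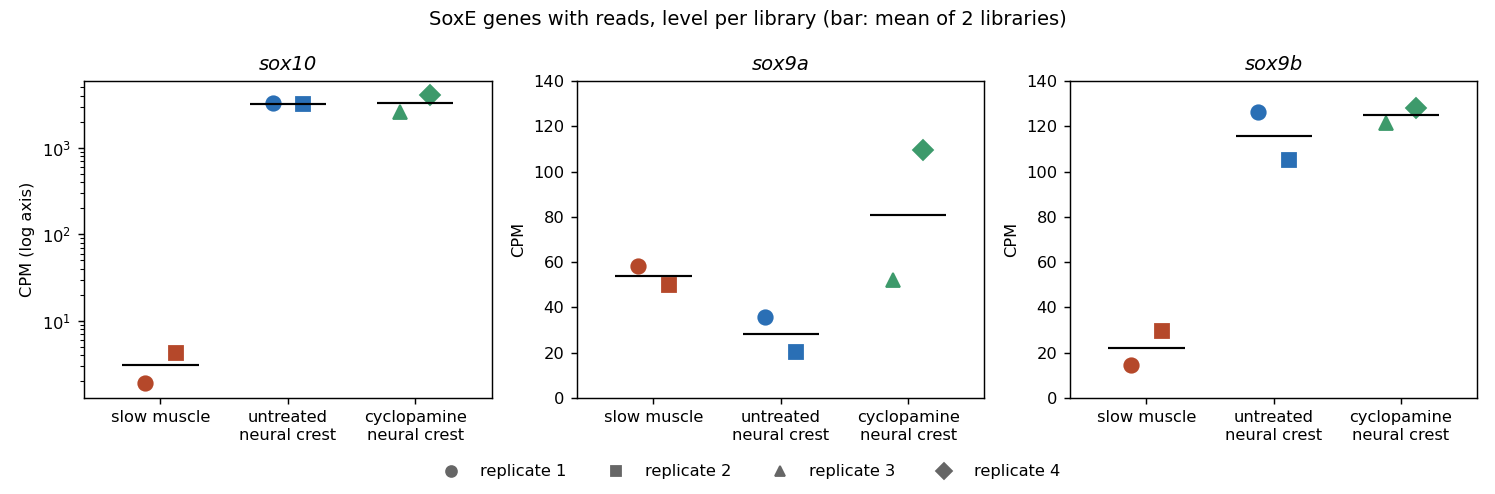
Level of sox10 (left, log axis), sox9a (middle) and sox9b (right) in CPM for each library of the 3 groups, with each point a library and each bar the mean of 2 libraries. Slow muscle lies far below crest for sox10 and below it for sox9b, while for sox9a the untreated crest libraries are the lowest.

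sox9b (ENSDARG00000043923), the crest-associated Sox9 duplicate, had 274 and 700 counts in slow muscle, 2394 and 1780 in untreated crest, and 2686 and 2728 in cyclopamine crest. These were 14.5 and 29.6 CPM, 126 and 105 CPM, and 122 and 128 CPM. The slow muscle libraries lay below all crest libraries without overlap, while the untreated and cyclopamine ranges overlapped. The means were 22.0 ± 10.7 CPM in slow muscle and 116 ± 14.8 CPM in untreated crest (SD, n = 2 each), so slow muscle held 19.0% of the untreated level. The log2 change of -2.39 ± 0.44 (SE) missed the threshold with an adjusted p of 0.0543 in edgeR's quasi-likelihood test. That verdict depends on the settings: sox9b was called lower in 9 of 14 alternatives, with adjusted p from 0.000155 with DESeq2 to 0.21. One of these is edgeR's newer quasi-likelihood mode, which was the first fit run here and gave an adjusted p of 0.0100. Leaving out any 1 of slow muscle replicate 2, cyclopamine replicate 3 and cyclopamine replicate 4 also brought it under the threshold, with adjusted p of 0.0490, 0.0103 and 0.00784. Against cyclopamine crest the change was -2.50 ± 0.44 (SE, edgeR adjusted p = 0.0538), and 7 of 13 alternatives called it. In that comparison 21.8% of tested genes were lower in slow muscle without overlap.

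sox9a (ENSDARG00000003293), the cartilage-associated duplicate, had 1102 and 1181 counts in slow muscle, 680 and 344 in untreated crest, and 1146 and 2335 in cyclopamine crest. These were 58.1 and 49.9 CPM, 35.8 and 20.3 CPM, and 51.9 and 110 CPM. Both slow muscle libraries exceeded both untreated crest libraries, and the slow muscle and cyclopamine ranges overlapped. The means were 54.0 ± 5.82 CPM in slow muscle and 28.1 ± 11.0 CPM in untreated crest (SD, n = 2 each), a log2 change of 0.94 ± 0.51 (SE) that did not pass the test (edgeR adjusted p = 0.358). Of all tested genes, 33.6% were higher in slow muscle without overlap and 27.3% were lower without overlap, so a lack of overlap is common in this comparison.

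**Figure D2:**
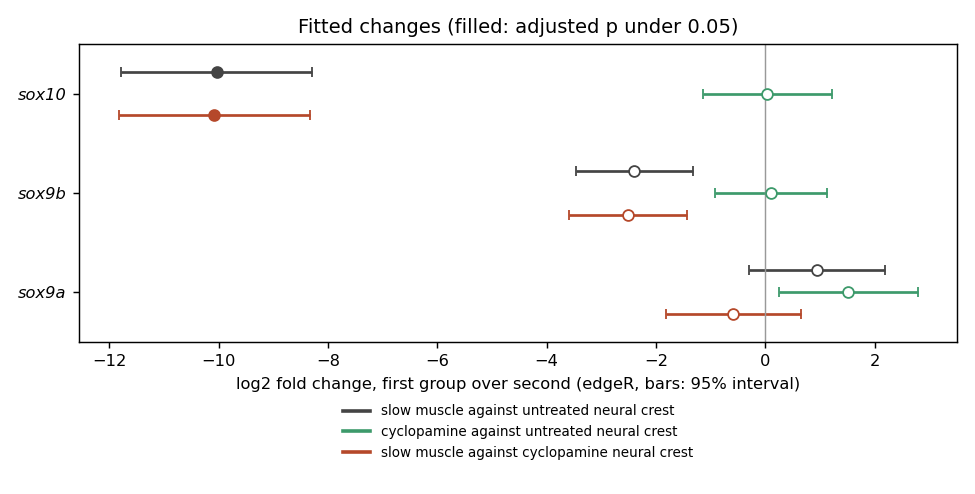
Fitted log2 fold change of sox10, sox9b and sox9a in the 3 comparisons, with 95% intervals as bars and filled points for an adjusted p under 0.05. Both sox10 changes between slow muscle and crest are filled, at -10.04 and -10.08, and every other point is open.

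Cyclopamine left sox10 and sox9b at levels that could not be told from untreated crest. If both crest groups were sorted on the sox10 reporter, the gate in part sets the sox10 level in each. A like level of sox10 then says little about cyclopamine. The sox10 means were 3322 ± 999 CPM with cyclopamine and 3231 ± 87.3 CPM without (SD, n = 2 each), and the log2 change was 0.04 ± 0.48 (SE, edgeR adjusted p = 1), with a 95% interval from -1.14 to 1.22. The sox9b means were 125 ± 4.59 and 116 ± 14.8 CPM (SD, n = 2 each), and the log2 change was 0.11 ± 0.42 (SE, edgeR adjusted p = 1). These intervals include changes of about 1 log2 unit either way, and they do not show that the levels were equal. No gene was called in this comparison, a share of 0%, while 767 genes (4.33%) had an unadjusted p under 0.05 and DESeq2 called 313. As a check on the treatment, 3 Hedgehog response genes were read, and none was called. hhip was at 26.2 and 27.2 CPM in untreated crest and 5.71 and 0.705 CPM with cyclopamine, and gli1 at 43.6 and 46.9 CPM against 16.8 and 27.6 CPM. ptch1 overlapped, at 51.3 and 53.1 CPM in untreated crest and 35.0 and 55.5 CPM with cyclopamine.

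sox9a was the SoxE gene with the largest fitted change under cyclopamine. Its mean was 80.8 ± 40.8 CPM with cyclopamine and 28.1 ± 11.0 CPM without (SD, n = 2 each), a ratio of means of 2.88. Both cyclopamine libraries lay above both untreated ones, as 14.6% of tested genes did. The log2 change was 1.52 ± 0.51 (SE) with an unadjusted p of 0.0256 and an edgeR adjusted p of 0.835, so it was not called. Cyclopamine replicate 4, the library that stood apart, was the higher one. Without replicate 3, which leaves replicate 4 alone in its group, the log2 change was 1.98, and without replicate 4 it was 0.88. Between slow muscle and cyclopamine crest the log2 change of sox9a was -0.58 (edgeR adjusted p = 0.571), and it turned to 0.059 without cyclopamine replicate 4.

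Ratios between members within a library do not depend on how the libraries were scaled. The log2 ratio of sox10 to sox9b counts was -2.93 and -2.81 in slow muscle, 4.71 and 4.91 in untreated crest, and 4.43 and 4.97 in cyclopamine crest. It differed by -7.68 between slow muscle and untreated crest, so the fall of sox10 in slow muscle was 205-fold larger than that of sox9b. The log2 ratio of sox9b to sox9a was -2.01 and -0.75 in slow muscle, 1.82 and 2.37 in untreated crest, and 1.23 and 0.22 in cyclopamine crest. The 3 groups did not overlap in it. The smallest p that an exact permutation test of 2 against 2 libraries can give is 0.333, so that test could not pass for these ratios.

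As shares, sox9b made up 19.9% and 37.2% of the summed sox9a and sox9b counts in slow muscle, 77.9% and 83.8% in untreated crest, and 70.1% and 53.9% in cyclopamine crest. The 95% Wilson intervals ran from 17.9% to 22.1% in slow muscle replicate 1 and from 52.5% to 55.3% in cyclopamine replicate 4, and they cover counting error only. The Sox9 pair was thus mostly sox9a counts in slow muscle and mostly sox9b counts in crest. sox10 held 2.55% and 5.05% of all SoxE counts in slow muscle and 93.8% to 96.2% in crest. Counts are not corrected for gene length here, so the shares compare libraries and not the abundance of one gene with another.

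**Figure D3:**
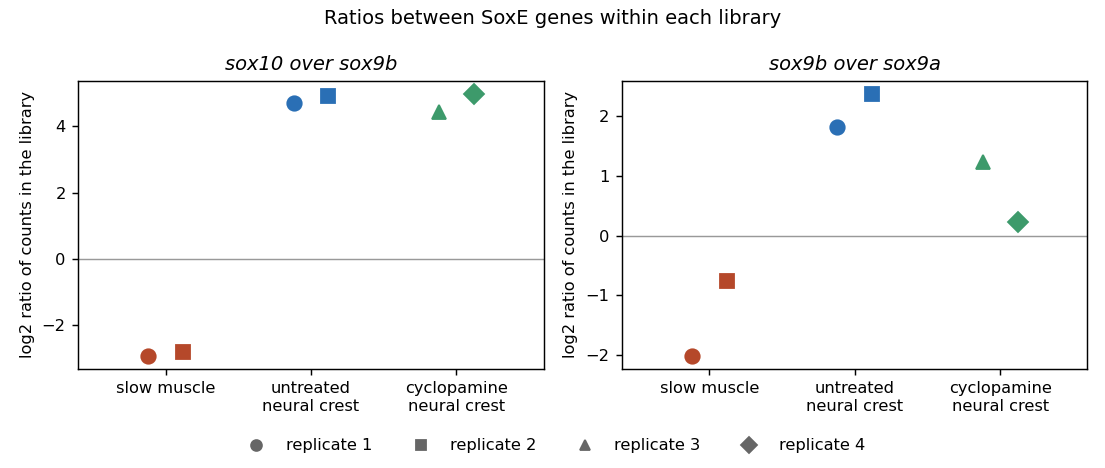
Within-library log2 ratios between SoxE counts for the 6 libraries, by group. The ratio of sox10 to sox9b separates slow muscle, near -2.87, from crest, between 4.43 and 4.97, and the ratio of sox9b to sox9a steps down from untreated to cyclopamine crest to slow muscle.

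The Sox8 duplicates had at most 1 count in any library. sox8b (ENSDARG00000037782) had 1 count in untreated replicate 1 and 1 in cyclopamine replicate 4, and sox8a (ENSDARG00000105301) had 0 in all libraries. With counting error alone, a 0 is compatible with a true level of 3 counts, which is 0.127 to 0.177 CPM depending on the library. In the GRCz12tu RefSeq annotation sox8b neighbours sox9b with 1 coding gene between them, sstr2b, and 13 coding genes lie between sox8a and sox9a. sstr2b had 60 counts in slow muscle replicate 1 and 0 elsewhere.

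The genes whose profile was most like each member were ranked by Pearson correlation of log2 CPM over the 6 libraries, among 9072 genes. The points share libraries and 3 groups, and r is a description with no p. Closest to sox10 were zeb2a, marcksl1b, gphna, gal3st1a and myt1a, with r from 0.998 to 0.999. zeb2a, a zinc-finger repressor gene of crest, was at 50.5 and 77.3 CPM in slow muscle and 1301 to 1770 CPM in crest. gal3st1a, which encodes the sulfotransferase of myelin sulfatide, was at 1.90 and 2.75 CPM in slow muscle and 42.1 to 55.9 CPM in crest. Closest to sox9b were carm1, lamp1a, hexb, naf1 and vta1, with r from 0.996 to 0.999. Among them carm1, an arginine methyltransferase gene, was at 52.5 and 89.5 CPM in slow muscle and 263 to 308 CPM in crest. Closest to sox9a were elf2b, usp45, zeb1b, caskin1 and slc38a4, with r from 0.983 to 0.992. zeb1b, a zinc-finger gene, was at 187 and 175 CPM in slow muscle, 133 and 100.4 CPM in untreated crest, and 188 and 259 CPM in cyclopamine crest, with untreated crest lowest, as for sox9a.

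Regulators that act with SoxE genes in crest followed sox10 in part. Of 24 listed crest regulators, all tested, 9 were called lower in slow muscle than in untreated crest, where 0.876% of all tested genes were, and none was called higher. The list median was -1.67 log2 against 0.08 over all tested genes. Crest was sorted on a sox10 reporter, so a fall of crest genes in slow muscle is in part set by the gate. Some calls were lost with 1 library left out, and the median then ran from -1.79 to -0.92 log2. The 9 were foxd3, tfap2a, tfap2e, pax3a, pax7a, pax7b, mycn, ets1 and crestin, the last a crest transcript listed with them. foxd3, tfap2e and crestin are also among the crest markers. Of the 9, pax7a had 1 and 0 counts in slow muscle and tfap2e had 0 and 14. Both passed the filter only through crest, so a call on either could only be lower. For the rest of the 9, slow muscle counts were 66 or more per library. olig4, a list gene that was not called, was at 0 counts in slow muscle and also passed only through crest. foxd3, a forkhead gene of early crest, was at 6.8 and 5.4 CPM in slow muscle and 220 and 170 CPM in untreated crest. tfap2a, an AP-2 factor gene, was at 22.8 and 45.8 against 681 and 596 CPM. The snail-type repressor genes and msx1b were not called, with snai1b at 189 and 156 CPM in slow muscle and 184 and 194 CPM in untreated crest. With cyclopamine none of the 24 was called against untreated crest, as no tested gene was, and the median was -0.03 log2. Without cyclopamine replicate 3 the median was -0.59 log2. foxd3 was at 122 and 81.9 CPM with cyclopamine, below both untreated libraries. Of the 24, 9 lay below both untreated libraries without overlap, where 16.6% of all tested genes did. Another 7 lay above both without overlap, where 14.6% of all tested genes did, among them tfap2a at 896 and 849 CPM.

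Genes known to depend on sox10 in pigment, glial and autonomic cells were 22 in the list, of which 18 were tested. In slow muscle 5 were called lower than in untreated crest, against 0.876% of all tested genes, and none higher. The list median was -4.09 log2 against 0.08 over all tested genes. Crest was sorted on a sox10 reporter, so a fall of such genes in slow muscle is in part set by the gate. Of the 18, 6 had 0 counts in both slow muscle libraries and passed the filter only through crest. Of the 5 called, 4 had 0 counts in both slow muscle libraries. These were mitfa, the regulator of melanophore fate, tyr, the tyrosinase gene, pmela, a melanosome protein gene, and ltk, an iridophore receptor gene. With a floor of 3 counts per library, which covers counting error only, they were 1934-fold, 3842-fold, 2739-fold and 542-fold lower in slow muscle. In slow muscle replicate 1, 344 genes at 0 had at least 100 counts in replicate 2, and 128 the reverse. A 0 can thus stand for more than 3 counts, and these folds are not lower bounds. The fifth called gene, erbb3b, was at 2.3 and 10.9 CPM in slow muscle and 663 and 622 CPM in untreated crest. The newer quasi-likelihood mode called 11 of the list, and it also called more genes among all tested ones. With 1 library left out the count of calls moved both ways, and the median ran from -4.81 to -3.21 log2. Several melanin genes were not called, such as dct, with 0 counts in slow muscle and 189 and 135 CPM in untreated crest (edgeR adjusted p = 0.0601).

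Under cyclopamine none of these 18 was called, as no tested gene was, and the median was -0.60 log2. Of these, 8 lay below both untreated libraries without overlap and none above, where 16.6% of all tested genes lay below. dct was at 62.2 and 3.24 CPM with cyclopamine, and pmela at 280.5 and 48.3 CPM against 434 and 347 CPM in untreated crest. tyrp1b was at 122 and 0 CPM against 172 and 186 CPM. In these 3 the lower value belonged to cyclopamine replicate 4, the library with the highest sox10. Other genes of the list were higher in replicate 4 than in replicate 3, among them ltk at 184 against 66.1 CPM, erbb3b at 1296 against 574 CPM and ret at 94.1 against 19.7 CPM. Without cyclopamine replicate 3 the list median was -2.79 log2, and without replicate 4 it was -0.23 log2. Removing untreated replicate 2 turned the median to 0.11 log2.

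**Figure D4:**
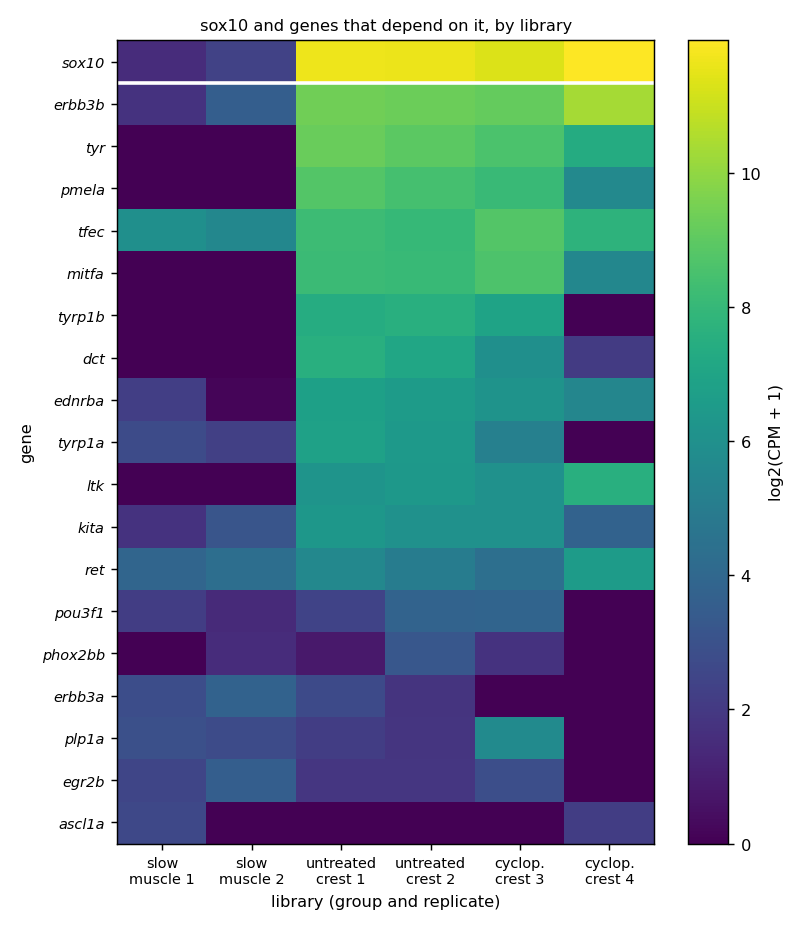
Heat map of sox10 (top row) and the 18 tested genes that depend on it, as log2 of CPM plus 1 (colour), with genes in rows and the 6 libraries in columns. The melanin genes are at or near 0 in slow muscle, high in untreated crest, and lower in cyclopamine replicate 4 than in replicate 3.

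Cartilage and matrix genes known as Sox9 targets, mostly from mouse, were 23 in the list, of which 15 were tested. In slow muscle 2 were called higher than in untreated crest, where 1.67% of all tested genes were called higher, and none was called lower. These were matn4, a matrilin gene, at 160 ± 57.8 against 20.1 ± 4.63 CPM (SD, n = 2 each), and hapln1a, a link protein gene, at 236 against 52.7 CPM. The list median was 1.0 log2. Calls were lost in some fits with 1 library left out and gained in others, and the list median then ran from 0.67 to 1.27 log2. col2a1a, which encodes the main cartilage collagen, did not differ beyond its spread, at 83.1 and 56.0 CPM in slow muscle and 77.6 and 59.3 CPM in untreated crest. Its duplicate col2a1b was higher in slow muscle without overlap, at 612 and 725 CPM against 62.0 and 69.8 CPM, but was not called.

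With cyclopamine none of the 15 tested cartilage genes was called, as no tested gene was. All 15 had a fitted change above 0, with a median of 2.46 log2. Of these, 9 lay above both untreated libraries without overlap, where 14.6% of all tested genes did. Much of the fitted change lay in replicate 4. col2a1a was at 91.8 CPM in cyclopamine replicate 3 and 3584 CPM in replicate 4, col9a1b at 4.08 and 600 CPM, and col9a2 at 11.7 and 435 CPM. col2a1b was at 194 and 985 CPM, against 62.0 and 69.8 CPM in untreated crest. Other genes of the list were higher in replicate 3 than in replicate 4, among them comp at 252 against 52.1 CPM and hapln1b at 31.1 against 17.0 CPM. Without replicate 4 the list had 11 genes fitted higher and 6 lower of 18 tested, with a median of 0.59 log2. Without replicate 3 the median was 3.15 log2.

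Notochord and floor plate genes were high in the same library. The 7 markers summed to 704 CPM in cyclopamine replicate 4, against 25.2 CPM in replicate 3, 21.0 and 33.8 CPM in untreated crest, and 746 and 791 CPM in slow muscle. The slow muscle sums were mostly ntd5, at 650 and 725 CPM, against 98.3 CPM in cyclopamine replicate 4. In slow muscle tbxta was at 23.5 and 10.5 CPM and col8a1a at 51.3 and 37.1 CPM. In replicate 4 tbxta, a notochord factor gene, was at 173 CPM and col8a1a at 415 CPM, while noto, another notochord factor gene, was at 0, 1 of 2 markers at 0 there. Notochord and floor plate are known to express type II collagen genes. The part of such cells in the sox9a and collagen values was not tested. hapln1a and matn4 were higher in both cyclopamine libraries than in both untreated ones, with hapln1a at 91.8 and 130 CPM against 52.2 and 53.3 CPM and matn4 at 45.0 and 38.7 CPM against 23.4 and 16.9 CPM.

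**Figure D5:**
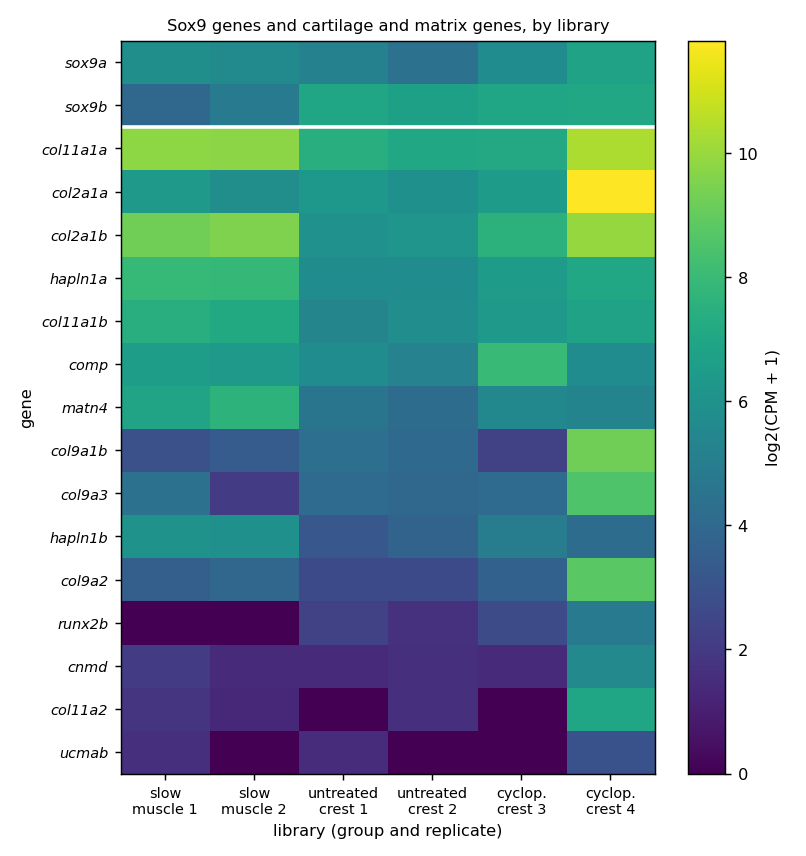
Heat map of sox9a and sox9b (top rows) and the 15 tested cartilage and matrix genes, as log2 of CPM plus 1 (colour), with genes in rows and the 6 libraries in columns. col2a1a is at 3584 CPM in cyclopamine replicate 4 and 91.8 CPM in replicate 3.

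The other Sox groups differed among themselves. sox5, a SoxD partner of Sox9 and Sox10, was called lower in slow muscle, at 18.1 and 32.7 CPM against 443 and 409 CPM in untreated crest, a log2 change of -4.07 ± 0.44 (SE, edgeR adjusted p = 0.0177). In that comparison 0.876% of all tested genes were called lower and 1.67% higher. The sort of crest on a sox10 reporter in part sets the fall of crest genes in slow muscle. The other SoxD genes were not called: sox6 was at 35.9 and 49.2 CPM in slow muscle and 102 and 84.4 CPM in untreated crest, and sox13 at 52.6 and 57.6 against 21.9 and 17.9 CPM. Among 5 tested SoxC genes, sox4a was called lower in slow muscle, at 62.5 and 32.4 CPM against 430 and 445 CPM. The other 4 went the other way, fitted higher in slow muscle without overlap, and none of them was called. Among them sox12 had 79 and 29 counts in slow muscle and 0 in every crest library. It passed the filter only through slow muscle, so it could only be fitted higher there. The calls of the SoxD and SoxC groups were lost in some fits with 1 library left out, and the SoxD group gained calls in others. None of the 9 tested SoxB genes or the 2 tested SoxF genes was called. The SoxF genes sox7 and sox18, known from endothelium, were fitted higher in slow muscle without overlap, as 33.6% of all tested genes were. The SoxF and SoxB groups gained calls in some fits with 1 library left out. With DESeq2, 1 SoxB gene was called lower. Endothelial markers summed to 1381 and 1556 CPM in slow muscle against 44.5 to 196 CPM in crest. Under cyclopamine no Sox gene of any group was called, and neither was any other tested gene.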

How the data were processed

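The authors deposited whole-number counts of reads per Ensembl gene, together with log2 values. Per the submitters' processing notes, the tools were STAR, featureCounts from Subread, and DESeq2, with no version given. No build, annotation or strand setting is given in the sources used here. Counts of overlapping or near-identical genes are therefore uncertain. Recomputing the deposited log2 values from counts, DESeq2 size factors and a pseudocount of 1 matched them within 0.001, and they were not used further. The titles of untreated crest include slow-twitch, but tissue and source labels give neural crest, which was followed.

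The test was edgeR 4.0.16 (R 4.3.3, limma 3.58.1) quasi-likelihood with TMM scaling and filterByExpr (minimum count 10, minimum total 15). All 6 libraries and 3 groups entered a single fit without covariates, leaving 17701 genes. Tests were two-sided, adjusted by Benjamini-Hochberg over these genes, with a threshold of 0.05. Standard errors and 95% intervals derive from the test statistic. The scripts were tested on simulated counts.

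The quasi-likelihood mode was changed after results had been seen. The first run used edgeR's newer mode (legacy=FALSE), taken for the default, and the plan listed legacy=TRUE as the alternative. legacy=TRUE proved to be the default of the installed version. Since the written design gives the test without arguments, it became the main fit after the calls of both modes were known, and legacy=FALSE became an added alternative. The change cost the sox9b calls: the first mode called sox10 and sox9b lower in slow muscle, the reported one sox10 alone.

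The members and gene lists were chosen with earlier results of these data known. Named genes were all members, the 5 genes most correlated with each tested member (mean of at least 10 CPM, prior count 2, symbol not a clone name), and list genes picked as examples, some after their values were seen. CPM are means ± SD of 2 libraries. Comparisons with untreated crest share its libraries, and no overlap between them was computed. Slow muscle and untreated crest share the numbers 1 and 2, but deviations of same-numbered libraries correlated at 0.0106 over 17701 genes, so the numbers were not taken as pairs. Alternatives were RLE and upper quartile scaling, no filter, at least 50 counts in 2 libraries, DESeq2 1.42.0 and the replicate block, and, added after the data were seen, legacy=FALSE, only the groups compared and each library left out.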

Additional observations from a re-analysis of the deposited data

How the results depend on the processing

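Each group had 2 libraries, and the counts of calls moved widely with the settings. Genes called between slow muscle and untreated crest numbered 451, 1408 without a filter, 2715 with DESeq2, 1818 with legacy=FALSE, 2368 with only those groups, and 108 to 3013 with 1 library left out (281 without slow muscle replicate 1, 108 without either untreated replicate, 2933 and 3013 without cyclopamine replicate 3 or 4). Under cyclopamine 0 became 21 without a filter and 313 with DESeq2, and 0 to 1366 with 1 library left out, 1366 without cyclopamine replicate 3 and 17 without replicate 4. Between slow muscle and cyclopamine crest, 385 became 1277 without a filter, 2737 with DESeq2, 1890 with legacy=FALSE, 0 with only those groups, and 204 to 3581 with 1 library left out (204 without slow muscle replicate 1, 3581 and 1759 without cyclopamine replicate 3 or 4). Upper quartile scaling shifted the median of all genes by -0.24 log2 and the higher share of calls from 65.6% to 52.4% against untreated crest, and by -0.23 log2 and from 63.4% to 48.0% against cyclopamine crest. SoxE members called in slow muscle against untreated crest numbered 1, and 2 (sox10 and sox9b) under upper quartile scaling, no filter, DESeq2, legacy=FALSE and only those groups, with 1 to 2 when a library was left out. Against cyclopamine crest they numbered 1, 2 under the first 4 of these, 0 with only those groups, and 1 to 2 with a library left out. Under cyclopamine they numbered 0, and 0 to 1 with a library left out.

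With the replicate number as a block, slow muscle against untreated crest gave 2053 genes, 2 SoxE members and both SoxF genes, sox9b with an adjusted p of 0.0243 (edgeR); the numbers are not known to pair libraries. The sox10 fall against untreated crest passed in all 14 alternatives, from -10.75 to -9.62 log2. Signs reversed, in log2, for sox9b under cyclopamine without untreated replicate 2 (-0.020, range -0.020 to 0.23 with 1 library left out), for sox10 under cyclopamine without cyclopamine replicate 4 (-0.31, range -0.31 to 0.33), and for sox9a between slow muscle and cyclopamine crest without that replicate (0.059, range -1.04 to 0.059), none of them called before or after. The cause of these shifts was not tested. Where 1 library was left of a group, it is assumed to vary like the others. sox8a and sox8b had no fitted value under the filter, so they have no alternative.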
